A study of Mus musculus with 6 samples.

Results

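Specific granule proteins and calprotectin are among the antimicrobial proteins that a maturing neutrophil makes in bulk. Here 10 of their transcripts were followed in neutrophils of miR-223 null and of wild-type mice. The members were chosen by probe set number, 1 probe set per gene, and make up 10 of the 45101 probe sets in the table. Of these members, 8 encode proteins of granules or of the surface that granules supply (Ltf, Lcn2, Camp, Ngp, Chil3, Cd177, Pglyrp1 and Hp) and 2 encode the subunits of calprotectin (S100a8 and S100a9). The table holds probe set numbers only, so the gene names are those of the rule that chose the members, and they were not checked against the array's annotation here.

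The study profiled RNA of bone-marrow neutrophils on Affymetrix arrays, with 3 arrays from miR-223 null mice and 3 from wild-type mice. Cells came straight from the animal and were isolated by magnetic sorting with an antibody to Gr-1, which also binds a surface protein of monocytes. Neither group received a treatment that the labels name; strain, age, sex and the null allele were not stated there. Nor do the labels tell whether each array stands for its own animal, and the p-values therefore rest on a spread between arrays that may be technical in part.

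Granule proteins are made in waves as a neutrophil matures in the marrow. The proteins of specific granules follow those of azurophil granules, at the myelocyte and metamyelocyte stages, and transcription factors of the C/EBP family, C/EBP-epsilon above all, are known to drive their genes. Calprotectin differs from the rest in that it is stored in the cytosol, where it is among the most abundant proteins. miR-223 is a microRNA of the myeloid lineage that acts against transcripts, lowering their stability and translation, by pairing through its seed, bases 2 to 8 from its 5′ end. The guide strand that the null animals lack is shown because it defines the comparison, with the seed in capitals (RefSeq, GRCm38.p6, chrX:96242884-96242905, plus strand). Target sites for it in these 10 transcripts were not analysed here.

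mmu-miR-223-3p: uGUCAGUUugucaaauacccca

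RefSeq promoter windows, each reaching from 250 bases before to 50 bases after the annotated start of a transcript, were at hand for 9 of the 10 genes. On either strand, 5 of the 9 (Ltf, Ngp, Chil3, Cd177 and S100a9) held TTNNGNAAT, a relaxed form of the C/EBP site in which N is any base. The same letters occur in 11.5% of the 32851 promoter windows of that length. The stricter C/EBP form TTGCGCAAT, itself a case of the relaxed form, was in 0 of the 9 and in 0.0487% of all windows, and the CCAAT-box form CCAATCA was in 0 of the 9 and in 7.82%. A match is a description of the letters, not evidence of a bound factor. The 5 sites are shown because they are a feature that the choice of members did not use. Each line gives 45 bases of the gene's sense strand with the match in capitals. Where the capitals read ATTNCNNAA, the match is on the opposite strand.

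Ltf: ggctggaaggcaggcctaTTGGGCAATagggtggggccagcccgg
Ngp: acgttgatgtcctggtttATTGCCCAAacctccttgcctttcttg
Chil3: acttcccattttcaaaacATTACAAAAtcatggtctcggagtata
Cd177: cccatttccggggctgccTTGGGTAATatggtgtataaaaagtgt
S100a9: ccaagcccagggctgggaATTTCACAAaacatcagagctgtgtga

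In GRCm38.p6 these stretches lie at chr9:111019199-111019243 (Ltf, plus strand), chr9:110419651-110419695 (Ngp, plus strand), chr3:106167566-106167610 (Chil3, minus strand), chr7:24760340-24760384 (Cd177, minus strand) and chr3:90695826-90695870 (S100a9, minus strand). The match begins 75 bases before the start in Ltf, 139 in Ngp, 28 in Chil3, 55 in Cd177 and 131 in S100a9. Some of the genes share a chromosome. Camp (109847377 to 109849456), Ngp (110419808 to 110423012) and Ltf (111019292 to 111042766) lie in this order on chromosome 9. Genes between them were not examined. S100a8 (90669071 to 90670034) and S100a9 (90692630 to 90695721) lie near each other on chromosome 3.

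Of the granule and calprotectin transcripts, the probe set for Pglyrp1 fell, to 82.1% of its wild-type level. Over 12 alternative fits this call was kept in 5 and lost in 7 (given further on). The other 9 did not pass the test. They were measured at the upper end of the scale, where the median size of a difference was small, though single probe sets differed more (given further on). Their levels in the cells are therefore not shown to be equal. Their differences ran from −0.0983 (Camp) to 0.0581 (Hp) on the log2 scale. Of the 10, 1 was lower in null cells at a limma adjusted p under 0.05 and 0 were higher. Over all 22519 probe sets tested, 3.84% passed this adjusted threshold, 1.06% lower and 2.78% higher in null cells. At an unadjusted p under 0.05 in the same limma fit, the members' counts were also 1 lower and 0 higher, beside 18.7% of all tested probe sets, 8.76% lower and 9.96% higher. The median difference of the members was 0.0086, beside −0.0080 over all tested probe sets, and 6 of the 10 differences were above 0. In bulk samples, fewer cells of a type and less RNA per cell cannot be told apart.

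The null values lay entirely below the wild-type values for 3 members (Ltf, Camp and Pglyrp1), entirely above for 0, and overlapped for 7. Over all tested probe sets 11.8% were parted downward in this way and 12.8% upward, together 24.6%. Counting either direction, 3 of 10 is near that background.

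The member transcripts were at the top of the arrays in both groups, which does not by itself identify the cells. All 10 members ranked among the 50 highest of 45037 non-control probe sets on every array. S100a9 held rank 1, Ngp rank 2 and S100a8 rank 3 on all 6 arrays. Once each array was sorted, values of equal rank lay within 0.0890 of each other, so a probe set that keeps its rank has nearly the same value on every array. These ranks place a probe set on the scale of the array and do not order the transcripts by abundance. Markers of monocytes, B cells, red cell precursors and other cells that the Gr-1 selection could hold were not analysed here, because their probe sets had no gene names, and their part in any result was not tested. Loss of miR-223 itself was not checked for the same reason.

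**Figure D1:**
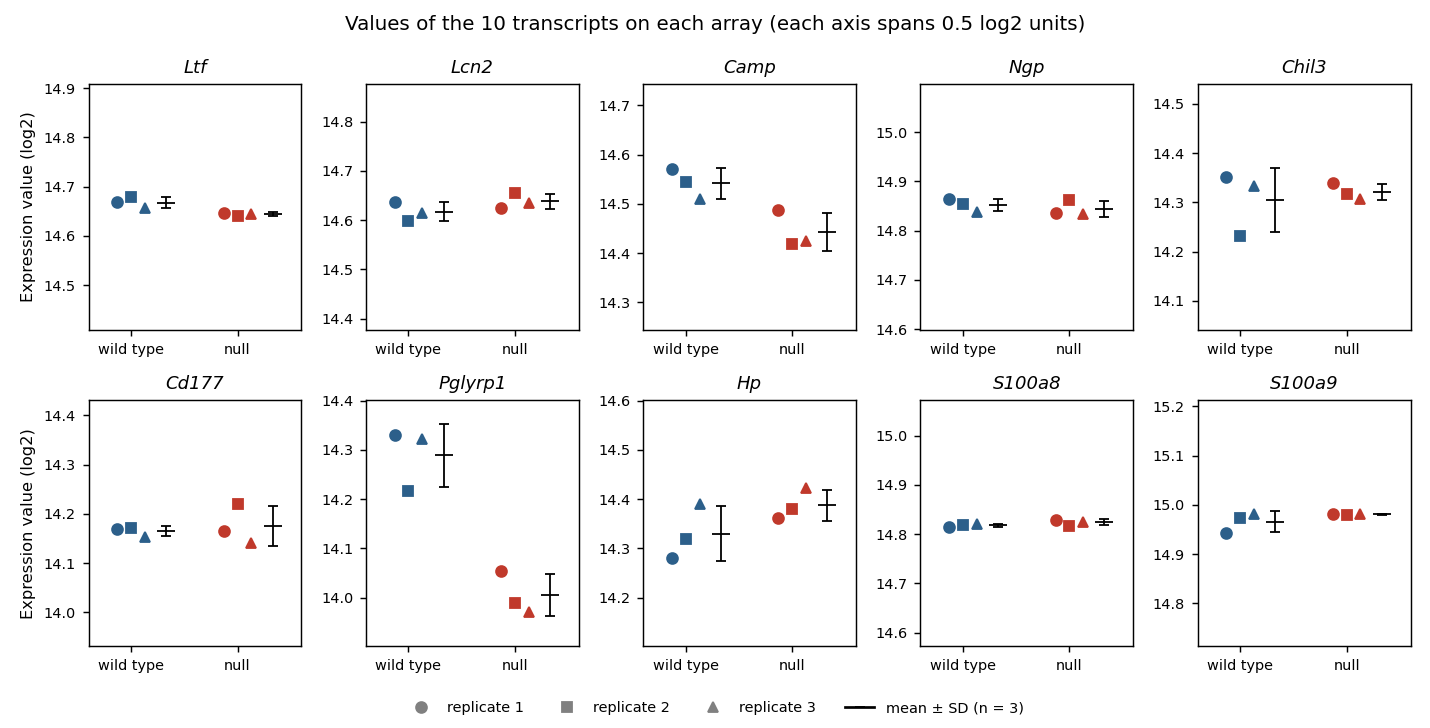
Expression value (log2) of each of the 10 probe sets on each array, in wild-type (blue) and null (red) cells, with marker shapes for replicates 1 to 3 and bars for mean ± SD (n = 3). Every panel spans the same range of log2 units, so the separation of Pglyrp1 (gap of 0.162) can be compared with the overlap of Lcn2, Ngp or S100a8.

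The first 3 members bind iron, its carriers or haem-containing protein, and so withhold iron from bacteria. Ltf, lactoferrin, is the iron-binding protein that defines the specific granule. Its probe set, 1450009_AT, read 14.647, 14.640 and 14.645 on null replicates 1 to 3 and 14.668, 14.678 and 14.656 on wild-type replicates 1 to 3. All null values were lower, but the gap between the groups was 0.0088 log2 units. The difference was −0.023 with a standard error of 0.037, a level 98.4% of wild type (limma adjusted p = 0.82).

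Lcn2, lipocalin 2, captures the siderophores with which bacteria take up iron. Its probe set, 1427747_A_AT, read 14.625, 14.655 and 14.635 in null and 14.638, 14.599 and 14.614 in wild-type cells. The groups overlapped, since wild-type replicate 1 lay above null replicates 1 and 3. The difference was 0.021 with a standard error of 0.038 (limma adjusted p = 0.845).

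Hp, haptoglobin, binds free haemoglobin and is stored in specific granules. Its probe set, 1448881_AT, read 14.361, 14.380 and 14.422 in null and 14.280, 14.319 and 14.390 in wild-type cells. Wild-type replicates 1 and 2 were the lowest arrays, while wild-type replicate 3 lay above null replicates 1 and 2. The difference was 0.058 (1.04-fold, standard error 0.047), the most positive of the members, and it did not pass the test (limma adjusted p = 0.588).

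Another 3 members kill bacteria, recognise them or are related to such proteins. Pglyrp1 binds peptidoglycan, the polymer of bacterial cell walls, and is released from neutrophil granules. Its probe set, 1449184_AT, read 14.054, 13.990 and 13.972 in null and 14.330, 14.216 and 14.323 in wild-type cells. The null arrays lay close together and the lowest wild-type array, replicate 2, was 0.162 above the highest null array, replicate 1. The null mean was 14.01 ± 0.0429 and the wild-type mean 14.29 ± 0.0640 (SD, n = 3 each).

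Pglyrp1 thus fell by 0.28 on the log2 scale, with a standard error of 0.051 and a 95% interval of −0.403 to −0.166, which put the wild-type level 1.22-fold above the null level, with an interval of 1.12 to 1.32 (limma adjusted p = 0.030). On the arrays its rank lay between 45 and 50 in null cells and between 17 and 28 in wild-type cells. The call did not hold without any of 5 arrays: the limma adjusted p was 0.104, 0.125 and 0.0842 without null replicates 1, 2 and 3, and 0.0555 and 0.0792 without wild-type replicates 1 and 3. It held without wild-type replicate 2 (0.0406). With an array left out, calls over all tested probe sets also became fewer, 85 to 588 in place of 864. The Pglyrp1 call also rests on how limma models the spread by level: with a single prior variance for all levels, the limma adjusted p was 0.137.

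Camp is the precursor of the cathelicidin peptide CRAMP, which disrupts bacterial membranes. Its probe set, 1419691_AT, read 14.488, 14.418 and 14.425 in null and 14.571, 14.545 and 14.509 in wild-type cells. All null values were lower, by a gap of 0.0214 between null replicate 1 and wild-type replicate 3. The difference was −0.098 with a standard error of 0.043 and a 95% interval of −0.198 to 0.0017, a level 93.4% of wild type, and it did not pass the test (limma adjusted p = 0.277).

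Ngp, neutrophilic granule protein, is related to the cathelicidins and cystatins. Its probe set, 1418722_AT, read 14.837, 14.862 and 14.833 in null and 14.864, 14.853 and 14.838 in wild-type cells. Null replicate 2 and wild-type replicate 1 were the highest arrays and nearly equal. The difference was −0.0077 with a standard error of 0.037 (limma adjusted p = 0.953).

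The remaining granule-linked members are a lectin and a surface protein. Chil3, also called Ym1, is a chitinase-like lectin without chitinase activity, and its transcript is nearly identical to that of its paralog Chil4, so the probe set may read both. Probe set 1419764_AT read 14.339, 14.317 and 14.307 in null and 14.351, 14.231 and 14.334 in wild-type cells. Wild-type replicate 2 stood below the other arrays, and the remaining values overlapped. The difference was 0.015 with a standard error of 0.048 (limma adjusted p = 0.92), and without wild-type replicate 2 it was −0.022.

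Cd177 is a glycoprotein anchored in the membrane of specific granules and of the cell surface. Its probe set, 1424509_AT, read 14.165, 14.220 and 14.141 in null and 14.169, 14.171 and 14.153 in wild-type cells. The null arrays enclosed the wild-type ones, with null replicate 2 the highest and null replicate 3 the lowest of all 6. The difference was 0.011 with a standard error of 0.043 (limma adjusted p = 0.937), and without null replicate 2 it was −0.011.

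Calprotectin is the complex of S100a8 and S100a9, calcium-binding proteins that together sequester zinc and manganese. The S100a8 probe set, 1419394_S_AT, has a suffix that Affymetrix gives where probes can match more than 1 transcript. It read 14.829, 14.817 and 14.825 in null and 14.814, 14.819 and 14.820 in wild-type cells, and the groups overlapped. The 6 values spanned 0.0148 log2 units, the narrowest range of the 10 members, and the difference was 0.0060 with a standard error of 0.036 (limma adjusted p = 0.964).

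The S100a9 probe set, 1448756_AT, read 14.982, 14.980 and 14.982 in null and 14.943, 14.974 and 14.982 in wild-type cells. It was the highest probe set on all 6 arrays, and on 3 of them (null replicates 1 and 3, wild-type replicate 3) it had exactly the highest value of the whole table, 14.9819. Wild-type replicate 1 was the lowest array. The difference was 0.015 with a standard error of 0.037 (limma adjusted p = 0.892). No value in the table lies above those of this probe set on null replicates 1 and 3.

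**Figure D2:**
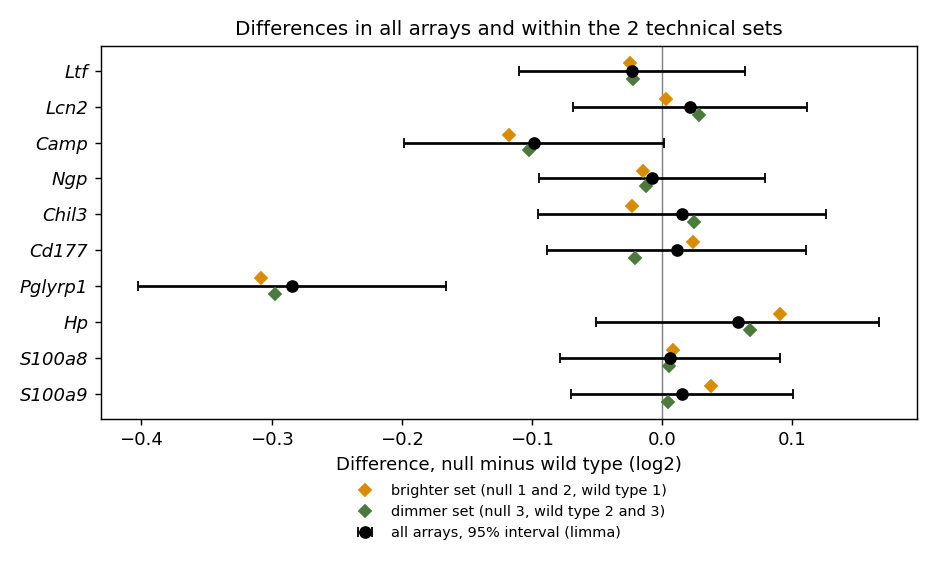
Difference between null and wild type (log2) for each member, with the 95% interval of the limma fit over all arrays (black) and the differences within the brighter (orange) and dimmer (green) technical sets, which have no interval. Only the interval of Pglyrp1, from −0.403 to −0.166, excludes 0; its within-set differences were −0.308 and −0.297.

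For the 8 members other than Pglyrp1 and Camp, the 95% intervals of the fold change reached at most 1.12-fold in either direction. These intervals, like those of Pglyrp1 and Camp, describe the deposited values and are not given as limits on the difference in transcript level. The members lay at or near the upper end of the scale, and whether this affected their differences was not tested. A p that misses the threshold does not show equal levels.

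Differences were mostly smaller at the height where the members lay, and so were their standard errors. The median standard error was 0.1085 for a mean of 8 to 10, 0.0448 for 14 to 14.5 and 0.0387 for 14.5 to 15. The median size of a difference was 0.142 log2 units for the 5195 probe sets with a mean of 8 to 10, 0.124 for the 534 from 12 to 13, 0.0922 for the 207 from 13 to 14, 0.0476 for the 38 from 14 to 14.5 and 0.0096 for the 10 from 14.5 to 15. Ltf, Lcn2, Ngp, S100a8 and S100a9 were among these last 10. Camp, Hp, Chil3, Cd177 and Pglyrp1 were among the 38 from 14 to 14.5, so the values of both groups include the members themselves. Of the probe sets from 14.5 to 15, 0 passed the limma test (0 at an unadjusted p under 0.05), against 5.79% of those from 8 to 10 and 5.26% of those from 14 to 14.5. From 14 to 14.5, 2 passed, and Pglyrp1 was 1 of them. Whether the upper end of the scale held down the differences of the members was not tested.

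Among the probe sets at its height or above, Pglyrp1 had the largest difference. At or above its mean of 14.15 lay 31 other probe sets, 9 members and 22 probe sets without a gene name here. Of those 22, 0 passed the limma test (1 at an unadjusted p under 0.05), and the largest difference was 0.118 in size, less than that of Pglyrp1 (0.284), while the median size was 0.022, beside 0.0185 for the 10 members. Larger differences occurred slightly lower on the scale, up to 0.692 for a probe set with a mean of at least 14. Among the 22, 4 were parted downward and 3 upward between the groups.

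**Figure D3:**
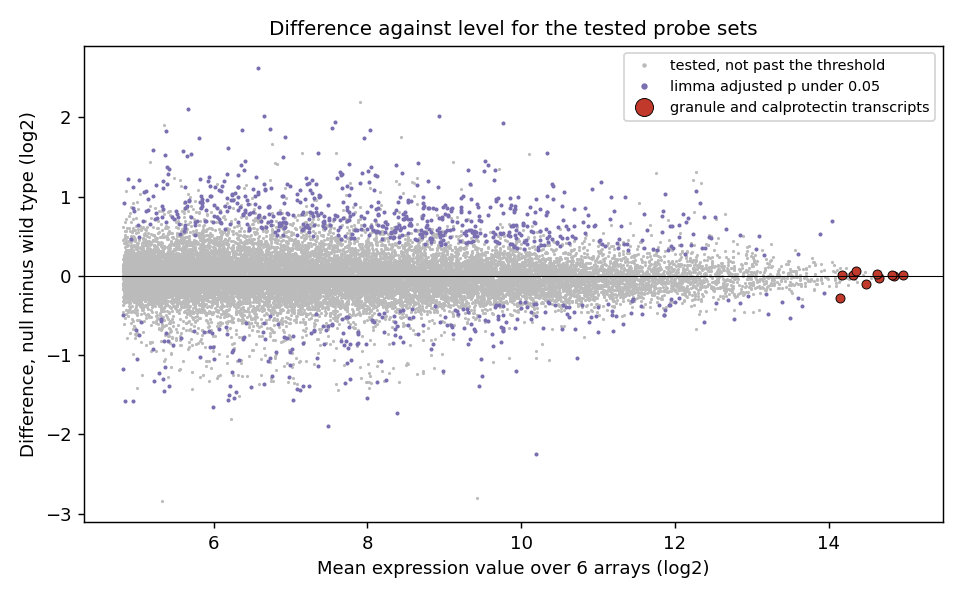
Difference between null and wild type (log2) against mean value over the 6 arrays (log2) for the 22519 tested probe sets, with those past the threshold in purple and the 10 members in red. The members lie at the right end, above 14, where the cloud narrows, and Pglyrp1 is the lowest red point, at −0.284.

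The arrays were divided into 2 sets, here called technical, by their average signal over 18 hybridization controls. This average was 10.94 to 10.98 on null replicates 1 and 2 and wild-type replicate 1 (the brighter set). It was 10.72 to 10.81 on the other 3 arrays (the dimmer set). The cut was put where neighbouring averages, once sorted, lay furthest apart (0.1315). Such a place exists in any data, and the labels name no batch, so real batches are not shown. None of the 10 members was parted by these sets. The shares of all tested probe sets parted by set, or with the same sign in both sets, were not taken. This count and the next therefore have no background, and they do not show the members free of a technical effect. The differences had the same sign in both sets for 8 members, the exceptions being Chil3 (−0.023 in the brighter and 0.0244 in the dimmer set) and Cd177 (0.0237 and −0.0208). Pglyrp1 differed by −0.308 in the brighter and −0.297 in the dimmer set, Camp by −0.118 and −0.102, and Ltf by −0.0244 and −0.0223. For these 3 members all null values lay below all wild-type values, which fixes the sign within any set, and in each set 1 of the groups is a single array, so the within-set values are a description only. With the set as a block, 11% of all tested probe sets passed the threshold, and among the members again Pglyrp1 alone (difference −0.303, standard error 0.046, limma adjusted p = 0.00951), while Camp did not pass (−0.110, limma adjusted p = 0.13).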

How the data were processed

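The authors deposited 1 log2 expression value per probe set and array. Per the submitters' processing notes GCOS was used; version, summary method and normalization: not given in the sources used here. That the scale is log2 follows from the range of the values, 2.12 to 14.98. At any rank the sorted columns differed by at most 0.0890, so they were nearly but not exactly equal. Quantile normalization of these values would make them equal, and no label states such a step. Where sorted columns are this alike, a value is largely set by its rank. No scaling was added. The 64 control probe sets were set aside, and the 22519 others with a mean at or above the median of means (4.83) were tested, all 10 members among them. The fit used limma 3.58.1 in R 4.3.3 (lmFit, eBayes with an intensity trend, two-sided, Benjamini-Hochberg over all tested probe sets, threshold 0.05). The steps were tested on simulated data with independent noise, no technical sets and no upper limit to the values. All differences added there were larger than that of Pglyrp1, so the simulation does not bear on a difference of that size. Precision is limited by the number of arrays; the members' median standard error was 0.0406.

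The members, the lists, the technical sets and the tests were chosen with earlier results of these data known. Planned lists of other granule genes, their regulators and cell type markers, and the genes most like the members in pattern, were not analysed, because their probe sets had no names here. Replicate numbers were not taken to pair the arrays in the main fit, because the labels do not say that they do. Deviations of same-numbered arrays correlated at 0.211, −0.124 and 0.371. Arrays with different numbers were not compared in this way, so these values do not decide whether the arrays were paired. Averaging null replicates 1 and 2 was added after seeing the data. Figures were drawn with matplotlib 3.10.9.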

Additional observations from a re-analysis of the deposited data

How the results depend on the processing

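Over 12 alternatives, the 9 members other than Pglyrp1 never passed the threshold (lowest limma adjusted p 0.13), and Camp ran from −0.1205 to −0.0749. Pglyrp1 ran from −0.321 to −0.264 and stayed past the threshold in 5 alternatives (no filter, replicate block, technical set block, quantile normalization, without wild-type replicate 2); the count of members called was 0 without an intensity trend (limma adjusted p = 0.137) and 0 with null replicates 1 and 2 averaged (0.109), and 0 to 1 with an array left out. The replicate block changed no call of a member: Pglyrp1 kept −0.284 (limma adjusted p = 0.0346), with 857 probe sets called. The 864 probe sets called overall became 2466 with the technical set block, 118 with null replicates 1 and 2 averaged, and 85 to 588 with an array left out. The median difference of the members, 0.0086, was 0.00107 with the technical set block, 0 after quantile normalization, and −0.00082 to 0.010 with an array left out. After quantile normalization the differences of Ngp, S100a8 and S100a9 were 0, since each held the same rank on all arrays. With an array left out, Cd177 ran from −0.011 to 0.0284 and Chil3 from −0.0216 to 0.0383.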

Other observations

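In the promoter windows of the 9 genes, the letters ATAAA, part of the TATA box, stood on the sense strand between 40 and 16 bases before the start in 5 (Ltf, Camp, Cd177, Pglyrp1 and S100a8), and in 4.25% of all 32851 windows. The longer TATAAA stood there in 2 (Cd177 and S100a8), and in 1.99% of all windows. These letters were chosen after the sequences were seen, and the match is a description only.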
